A study of Mus musculus with 15 samples.

Results

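The data described here are 6 RNA-seq libraries from the livers of male FVB/NJ mice. The 3 CTNNB1_NFE2L2_MET libraries came from livers given 3 genes together: the S45Y mutant of CTNNB1 (β-catenin), the G31A mutant of NFE2L2 (NRF2) and human MET (hMET), the receptor of hepatocyte growth factor. The 3 NFE2L2_MET libraries came from livers given G31A-NFE2L2 and hMET without mutant CTNNB1. Both groups therefore carried mutant NRF2 and human MET, and the labels set the groups apart by mutant β-catenin. CTNNB1_NFE2L2_MET replicate 3 was also marked ADDED in the deposit, as no NFE2L2_MET library was, and what the mark means is not given in the sources used here. They are 6 of 15 libraries in 5 groups of 3; the other groups were wild-type FVB liver (WT), S45Y-CTNNB1 with hMET (CTNNB1_MET) and S45Y-CTNNB1 with G31A-NFE2L2 (CTNNB1_NFE2L2). The members were chosen by these labels, and each of the 24411 genes in the files entered the comparison if its counts passed a filter on low values, which 14098 did. The age of the mice, the time after gene delivery, the way the genes were delivered and the part of the liver sampled were not given in the sources used here. Whether the 3 samples of a group are 3 mice is likewise not stated, and the p-values describe only how these samples varied, which may be technical variation.

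β-Catenin is the transcriptional arm of Wnt signalling: a destruction complex built on APC and the AXIN proteins marks it for degradation through phosphorylated serine and threonine residues near its N-terminus, and mutation of such a residue lets it accumulate and act with TCF/LEF factors in the nucleus. In healthy liver this signal is strongest around the central vein, where hepatocytes make glutamine, take up ammonium and express drug-metabolizing cytochrome P450 enzymes, while hepatocytes around the portal vein carry out urea synthesis, amino acid breakdown and gluconeogenesis. NRF2 drives glutathione, thioredoxin and quinone-reducing enzymes, and mutations such as G31A lie in the part of NRF2 that its inhibitor KEAP1 recognises. MET signals through the RAS and ERK pathway, among others. Combinations of these genes are used to model hepatocellular carcinoma, and the series title names mutant β-catenin and resistance to immune checkpoint treatment as its subject.

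Levels are CPM (read counts divided by library size) with edgeR's TMM scaling factors, given for CTNNB1_NFE2L2_MET replicates 1, 2 and 3 against NFE2L2_MET replicates 1, 2 and 3, in that order, unless stated otherwise. Changes are log2 fold changes ± standard error (SE), CTNNB1_NFE2L2_MET over NFE2L2_MET, and adjusted p is the Benjamini-Hochberg value over all 14098 genes in edgeR's quasi-likelihood test. "Rose" and "fell" are used for genes with an adjusted p under 0.05. Because these are whole pieces of tissue, fewer cells of a type and less RNA per cell cannot be told apart.

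Counts of the mouse genes that correspond to the introduced ones were read first. Ctnnb1 (chromosome 9, 120933400 to 120960507, GRCm38.p6) read 453, 409 and 454 CPM against 355, 316 and 331 CPM, so the groups did not overlap. Its change was 0.39 ± 0.11 (edgeR adjusted p = 0.0154); without NFE2L2_MET replicate 2 it was 0.36 and the adjusted p 0.0605, and with the share of unmapped reads as a covariate it was 0.34 with an adjusted p of 0.109. Reads of an introduced and of the resident copy cannot be told apart in these counts. Nfe2l2 read 63.4, 65.1 and 59.2 against 56.5, 53.3 and 54.9 CPM (0.19 ± 0.20, edgeR adjusted p = 0.506), and passed after division by total counts (0.55, edgeR adjusted p = 0.0454). Met read 86.6, 79.2 and 83.8 against 86.4, 91.7 and 79.4 CPM (−0.04 ± 0.15, edgeR adjusted p = 0.851), and the groups overlapped. Human MET reads were not counted as such.

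The 6 libraries held 17226049 to 19873266 reads assigned to genes. Reads that mapped nowhere made up 10.3% ± 1.41 (SD, n = 3) of the CTNNB1_NFE2L2_MET libraries and 13.7% ± 0.878 (SD, n = 3) of the NFE2L2_MET libraries. A single transcript, Alb (serum albumin), took 5.85% ± 0.352 (SD, n = 3) of the gene counts against 10.8% ± 1.47 (SD, n = 3), and the 50 most abundant genes took 29.4% ± 0.543 (SD, n = 3) against 39.7% ± 2.58 (SD, n = 3). The first principal component of the 6 libraries held 61.7% of their variance and separated the groups, with CTNNB1_NFE2L2_MET at −53.0 to −39.3 and NFE2L2_MET at 34.2 to 59.3; the second, with 21.9%, spread replicates within each group. Of the 14098 genes tested, 4325 changed (30.7%): 2314 rose (16.4%) and 2011 fell (14.3%). Changes of at least 2-fold were met by 1687 genes (12.0%), 989 upward (7.02%) and 698 downward (4.95%), and changes of at least 8-fold by 200 genes (1.42%), of which 160 rose and 40 fell. Without regard to a test, the 3 and 3 libraries did not overlap for 3437 genes that were higher (24.4%) and 3183 that were lower (22.6%). These shares are the background against which the counts of each gene group below are to be read. The share of rises depends on the scaling: the median change of all genes was 0.01 after TMM and 0.38 after division by total counts, under which 6928 genes passed and 88.5% of them were higher, against 53.5% after TMM.

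**Figure D1:**
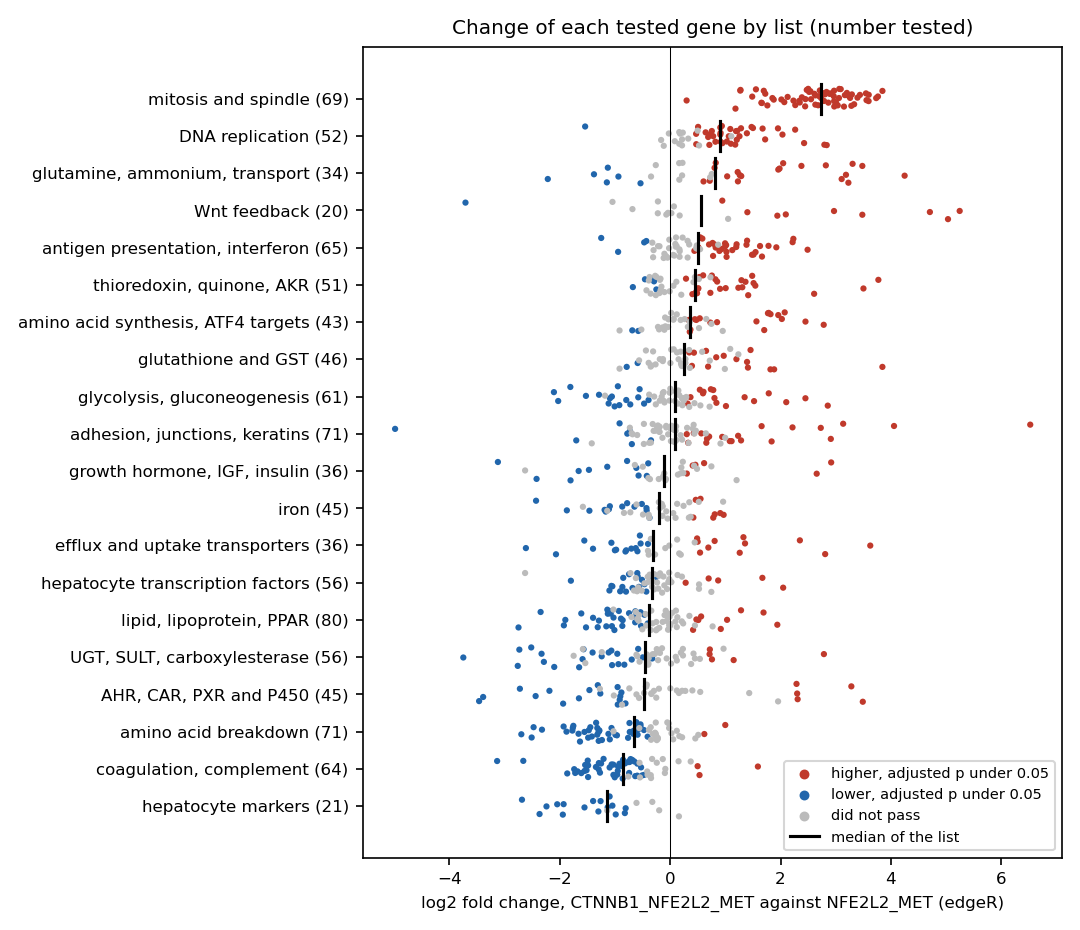
Log2 fold change of every tested gene in 20 gene lists, CTNNB1_NFE2L2_MET against NFE2L2_MET (horizontal axis); each point is 1 gene, red and blue points passed edgeR's test, grey points did not, and black bars are list medians. Mitosis genes lie to the right with a median of 2.74, and hepatocyte markers and coagulation and complement genes lie to the left with medians of −1.14 and −0.86.

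Genes that restrain Wnt signalling, many of them known targets of β-catenin, rose more often than they fell. Of 20 tested members of the feedback list, 9 rose and 1 fell, with a median of 0.56 beside 0.01 for all genes. Nkd1, an inhibitor that acts on Dishevelled (chromosome 8, 88521342 to 88594887), read 92.4, 79.0 and 75.1 against 2.65, 1.66 and 2.12 CPM, a change of 5.25 ± 0.25 (edgeR adjusted p = 1.5e-08). WT liver lay between the groups, at 4.70 ± 0.641 CPM (SD, n = 3). Apcdd1, a membrane inhibitor of Wnt ligands, read 5.43, 7.21 and 6.86 against 0.354, 0.133 and 0.229 CPM (4.71 ± 0.48, edgeR adjusted p = 5.8e-06). Every CTNNB1_NFE2L2_MET library was above every NFE2L2_MET library for both genes.

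Axin2, the scaffold of the destruction complex that β-catenin itself induces, read 50.9, 47.2 and 40.9 against 4.95, 5.19 and 2.35 CPM. The ubiquitin ligases that remove Wnt receptors from the cell surface rose together: Rnf43 from 14.3, 15.7 and 9.68 CPM to 56.2, 61.4 and 51.5 CPM (2.10 ± 0.24), and Znrf3 from 7.25, 7.39 and 6.76 CPM to 18.2, 19.8 and 18.5 CPM (1.40 ± 0.18). Tnfrsf19 (TROY), a receptor that dampens Wnt signalling, rose by 2.97 ± 0.34. The secreted antagonists did not move in 1 direction. Sfrp2 read 2.92, 6.49 and 3.11 against 0.118, 0 and 0.229 CPM, whereas Dkk4 read 0, 0.0961 and 0.243 against 2.77, 0.998 and 0.974 CPM. Both changes passed (edgeR adjusted p = 0.0017 and 0.0081), and both rest on a few counts in the lower group. Leaving out NFE2L2_MET replicate 3 moved Sfrp2 from 5.04 to 5.91, and Dkk4 went from −3.71 to −4.81 without CTNNB1_NFE2L2_MET replicate 3 and to −3.03 without NFE2L2_MET replicate 1.

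Among ligands and receptors the balance was the other way: 4 of 27 tested genes rose and 8 fell, with a median of −0.41; after division by total counts 6 rose and 3 fell, and 5 fell with the share of unmapped reads as a covariate. The rises were Lgr5, Wnt5a, Lrp5 and Fzd6. Wnt5a, a ligand known for β-catenin-independent signalling, read 9.37, 7.88 and 6.57 against 1.71, 2.13 and 1.95 CPM (2.04 ± 0.20), with no overlap. Lrp5, the co-receptor, read 143, 114 and 110.2 against 50.03, 40.2 and 38.2 CPM (1.52 ± 0.16). The receptors split, since Fzd6 rose (1.28 ± 0.28) while Fzd4 fell (−0.93 ± 0.21).

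Of the β-catenin complex and its TCF/LEF partners, 5 of 33 tested genes rose and 3 fell (median 0.06), and without NFE2L2_MET replicate 2 these were 3 and 2; 19 rose after division by total counts, 8 rose without the libraries marked ADDED, and 6 fell in the fit of the 6 libraries alone. Tcf7 read 14.3, 14.8 and 14.1 against 2.42, 1.86 and 2.29 CPM (2.71 ± 0.21, edgeR adjusted p = 3.2e-07). Lef1, which is scarcely expressed in adult liver, read 5.07, 3.27 and 3.89 against 0.471, 0.200 and 0.172 CPM (3.82 ± 0.47; 4.41 without NFE2L2_MET replicate 1). Tcf7l1, mostly a repressor, went from 4.13, 4.46 and 4.35 CPM down to 1.54, 1.68 and 2.24 CPM (−1.24 ± 0.24), and Ctnnbip1 (ICAT), which blocks the binding of TCF factors to β-catenin, fell (−0.997 ± 0.16). Tcf7l2, the main TCF factor of adult liver, read 17.0, 16.3 and 13.9 against 13.3, 16.0 and 14.7 CPM and did not pass (0.11 ± 0.16, edgeR adjusted p = 0.651; 0.47 and passing after division by total counts), nor did Apc (−0.15 ± 0.10, edgeR adjusted p = 0.311).

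Transcription factors and cell cycle genes known as Wnt targets were mixed, with 4 of 15 tested rising and 3 falling. Tbx3, a T-box factor of pericentral hepatocytes and liver tumours, read 97.1, 90.0 and 84.1 against 16.9, 29.8 and 19.1 CPM. Ccnd1 (cyclin D1) read 226, 169 and 119 against 49.2, 59.2 and 47.7 CPM (1.72 ± 0.19). Mycn rose by 1.33 ± 0.32, but Myc read 23.7, 14.3 and 11.1 against 38.1, 8.05 and 11.0 CPM and its groups overlapped (−0.22 ± 0.52, edgeR adjusted p = 0.787). Sox9 and Id2 fell, by 1.27 ± 0.29 and 1.17 ± 0.24 on the log2 scale.

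To show where the letters bound by TCF/LEF factors stand in genes that rose, 250 bases before the annotated start are printed for 3 of them: Sp5, the zinc-finger factor with 14.7, 13.2 and 10.5 against 0.589, 0.532 and 0.344 CPM, Slc1a2, a glutamate transporter, and Lect2, a secreted hepatokine. The sequences are from RefSeq (GRCm38.p6), 5′ to 3′ on the gene's strand, and capitals mark CTTTGA or its reverse complement TCAAAG, the core of the TCF/LEF motif. Sp5 covers chr2:70474673-70474922 on the plus strand, Slc1a2 chr2:102706188-102706437 on the plus strand and Lect2 chr13:56548539-56548788 on the minus strand.
Sp5: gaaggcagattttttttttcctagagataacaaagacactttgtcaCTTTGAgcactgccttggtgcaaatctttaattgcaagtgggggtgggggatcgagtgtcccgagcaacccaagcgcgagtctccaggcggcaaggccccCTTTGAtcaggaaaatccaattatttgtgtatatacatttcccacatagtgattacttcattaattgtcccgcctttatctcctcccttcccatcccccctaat
Slc1a2: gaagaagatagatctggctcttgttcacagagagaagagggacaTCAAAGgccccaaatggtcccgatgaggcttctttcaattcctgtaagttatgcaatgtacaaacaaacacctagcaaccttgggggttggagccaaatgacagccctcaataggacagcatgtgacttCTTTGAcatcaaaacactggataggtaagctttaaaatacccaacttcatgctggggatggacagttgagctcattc
Lect2: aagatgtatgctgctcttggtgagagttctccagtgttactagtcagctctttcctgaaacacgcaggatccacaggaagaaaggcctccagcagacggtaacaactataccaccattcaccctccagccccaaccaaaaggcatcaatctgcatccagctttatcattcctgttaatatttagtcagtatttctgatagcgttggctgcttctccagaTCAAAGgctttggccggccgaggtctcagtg
The matches begin 204 and 104 bases before the start in Sp5, 206 and 77 in Slc1a2 and 31 in Lect2. The same letters occur, on either strand, in 16.0% of all 32851 windows of 300 bases (250 before to 50 after a start). Per gene, at least 1 window held them for 14.7% of the tested genes with a window, 15.8% of those that rose, 14.6% of those that fell and 19.7% (23 genes) of those that rose at least 8-fold. The longer form CTTTGATC, present in the second Sp5 match, occurred in 0.916% of tested genes and in 3.42% (4 genes) of the 8-fold rises. The 250 bases before the start of Axin2, Nkd1 and Glul hold no CTTTGA on either strand. A match is a description of letters and not a binding site.

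**Figure D2:**
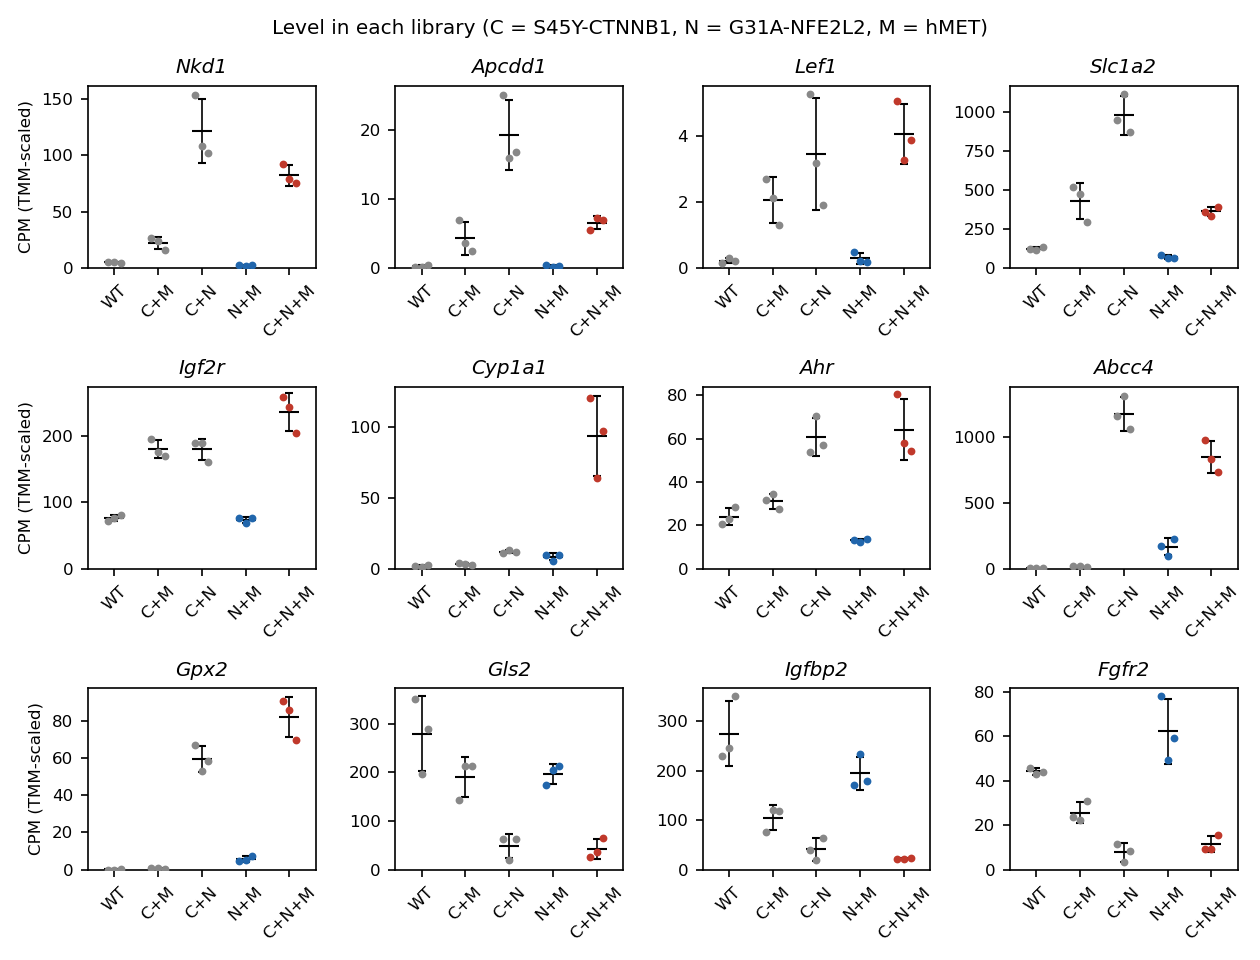
Level of 12 genes in each of the 15 libraries (vertical axes, TMM-scaled CPM from 0; points are libraries, bars mean ± SD, n = 3), with CTNNB1_NFE2L2_MET in red and NFE2L2_MET in blue. Nkd1, Apcdd1, Lef1 and Slc1a2 are high in the groups given mutant CTNNB1 and near or under the WT level in NFE2L2_MET, whereas Cyp1a1 is high in CTNNB1_NFE2L2_MET and at most 13.01 CPM in each library of the other groups.

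Genes of the pericentral glutamine and ammonium system mostly rose: of 34 tested 20 rose and 6 fell, with a median of 0.82. Slc1a2 read 359, 334 and 390 against 84.2, 60.8 and 63.4 CPM (2.38 ± 0.19, edgeR adjusted p = 5.1e-07), with WT at 121.05 ± 12.5 CPM (SD, n = 3). Lect2 read 381, 513 and 466 against 61.7, 35.7 and 40.0 CPM. Slc1a5, a glutamine carrier common in tumours and low in liver, read 31.7, 30.4 and 23.1 against 3.12, 2.53 and 3.38 CPM (3.23 ± 0.21), and Slc13a3, a dicarboxylate carrier, rose by 3.11 ± 0.24. The NFE2L2_MET libraries were the lower group in each case, without overlap.

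Enzymes around glutamate moved in both directions. Oat (ornithine aminotransferase), pericentral in normal liver, read 434, 451 and 532 against 263, 198 and 147 CPM (1.22 ± 0.21), and Glud1 (glutamate dehydrogenase) rose by 0.80 ± 0.13. Gls2, the periportal glutaminase that breaks glutamine down, read 25.6, 35.4 and 66.0 against 174, 205 and 212 CPM (−2.22 ± 0.44, edgeR adjusted p = 0.0028). Slc38a4, an amino acid carrier, fell by 1.15 ± 0.23.

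In the imprinted Igf2r cluster on chromosome 17, Igf2r, Airn and Slc22a3 rose and Slc22a2 did not pass. Igf2r (12682406 to 12769706), which clears IGF2 from the cell surface, read 260, 245 and 206 against 75.9, 69.1 and 76.2 CPM (1.68 ± 0.11, edgeR adjusted p = 8.9e-08). Airn (12741311 to 12859884), a non-coding RNA that starts within Igf2r on the other strand, read 5.48, 4.76 and 3.02 against 0.236, 0.266 and 0.630 CPM (3.51 ± 0.43; 4.10 without NFE2L2_MET replicate 3). Since the counts do not use strand, reads where these genes overlap cannot be assigned to either. Slc22a3 (12419972 to 12507704), a cation transporter, read 7.58, 7.88 and 4.82 against 1.24, 0.865 and 0.745 CPM (2.82 ± 0.24). Slc22a2, which lies between them (12584189 to 12628489), read 0.819, 0.481 and 0.584 against 0.354, 0.333 and 0.115 CPM (1.22 ± 0.57, edgeR adjusted p = 0.115; 1.58 and passing after division by total counts).

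Of the remaining imprinted genes, Mirg, a non-coding RNA of the Dlk1 to Dio3 cluster, read 4.76, 3.80 and 5.25 against 0.177, 0.133 and 0.344 CPM (4.33 ± 0.46). All 5 tested members of that cluster rose; 3 did without NFE2L2_MET replicate 2 or with the share of unmapped reads as a covariate. Ddc, aromatic amino acid decarboxylase, read 192, 183 and 185 against 51.1, 22.4 and 66.2 CPM (2.001 ± 0.38). Peg3, an imprinted zinc-finger gene, fell by 1.26 ± 0.23. Over the whole list of other imprinted genes 7 of 34 rose and 5 fell, and 3 fell without any 1 of CTNNB1_NFE2L2_MET replicates 1 or 2 or NFE2L2_MET replicates 1, 2 or 3; after division by total counts 14 rose and 2 fell.

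The aryl hydrocarbon receptor gene Ahr and the AHR targets Cyp1a1 and Cyp1a2 rose, while another target, Tiparp, fell and Ahrr, at 1 to 6 counts a library, was too low to test. Ahr itself read 80.4, 57.8 and 54.2 against 13.2, 12.4 and 13.7 CPM (2.29 ± 0.16, edgeR adjusted p = 2.1e-07). Cyp1a1 read 120.3, 64.1 and 97.2 against 9.84, 5.39 and 9.68 CPM (3.49 ± 0.26), and WT liver had 1.90 ± 0.543 CPM (SD, n = 3). Cyp1a2, its neighbour on chromosome 9 and a pericentral enzyme, read 4308, 5228 and 4962 against 1096, 794 and 1051 CPM (2.30 ± 0.22). No library of 1 group reached the range of the other for these 3 genes. Tiparp, chosen after its values were seen, was at 7.63, 5.14 and 4.67 against 10.3, 11.5 and 11.1 CPM (−0.92 ± 0.22, edgeR adjusted p = 0.0046).

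For Cyp1a1, the 250 bases before the start (RefSeq, GRCm38.p6, chr9:57697363-57697612, plus strand) are shown with capitals on GCGTG, the core bound by AHR with its partner ARNT.
Cyp1a1: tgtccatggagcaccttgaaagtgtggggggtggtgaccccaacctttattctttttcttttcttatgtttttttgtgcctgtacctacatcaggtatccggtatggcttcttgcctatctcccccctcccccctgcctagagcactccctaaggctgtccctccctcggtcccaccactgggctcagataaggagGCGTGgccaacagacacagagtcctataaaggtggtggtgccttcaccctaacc
The single match begins 54 bases before the start. GCGTG or its reverse complement CACGC occurred in 32.4% of all windows of 300 bases and in at least 1 window of 53.9% of the tested genes, so the letters alone are common.

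Over the list of AHR, CAR and PXR targets and other P450 genes, 5 of 45 tested rose and 16 fell, with a median of −0.47. The rises beyond Ahr, Cyp1a1 and Cyp1a2 were Cyp2c55 (3.28 ± 0.37; 4.05 without NFE2L2_MET replicate 1) and 1 further gene of the Cyp3a family, both members of multi-copy families whose reads may be shared among paralogs. Cyp2j5, an arachidonic acid epoxygenase, read 96.1, 148 and 222 against 632, 551 and 605 CPM (−1.94 ± 0.23). Cyp2e1, the pericentral ethanol-oxidizing enzyme, read 2110, 3666 and 3586 against 3628, 2544 and 2215 CPM, and its groups overlapped (0.16 ± 0.23, edgeR adjusted p = 0.649). The receptors Nr1i3 (CAR) and Nr1i2 (PXR) did not pass (−0.74 ± 0.27 and −0.25 ± 0.18, edgeR adjusted p = 0.0572 and 0.315); Nr1i3 passed in DESeq2, in the fit of the 6 libraries alone and without NFE2L2_MET replicate 3 (−0.87).

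Conjugating enzymes and esterases fell more often than they rose, 22 against 5 of 56 tested, with 14 falling without CTNNB1_NFE2L2_MET replicate 1 and 14 without replicate 2; after division by total counts 15 rose and 12 fell, and with the share of unmapped reads as a covariate 7 fell. Markers of hepatocytes also fell more often than they rose, as members of this list and the P450 list did. Of 21 markers 16 fell and none rose, with a median of −1.14 and a summed level of 112000 to 125210 CPM against 223460 to 290050 CPM. The summed level of this list overlapped, at 10651 to 15025 against 13702 to 16639 CPM. That of the P450 list did too, at 34542 to 43721 against 32859 to 44061 CPM. The part of the hepatocyte markers in these and the later results they move with was not tested. Ces3b, a liver carboxylesterase, read 24.0, 56.2 and 95.9 against 511, 326 and 335 CPM (−2.73 ± 0.53). Sult5a1, a sulfotransferase, read 2.36, 4.95 and 6.62 against 19.6, 22.1 and 18.4 CPM (−2.10 ± 0.36). Both belong to families with close paralogs.

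Among genes that rose, did not overlap and had a mean log2 CPM of 3 or more, the largest rise was in a carbonic anhydrase. Car4 (chromosome 11, 84957754 to 84966054), a membrane-bound form that converts carbon dioxide and bicarbonate, read 40.0, 47.2 and 23.6 against 0.471, 0.0665 and 0.286 CPM (6.996 ± 0.51, edgeR adjusted p = 5.9e-07; 7.59 without NFE2L2_MET replicate 1). Car2, the common cytosolic form, read 86.5, 66.9 and 52.8 against 8.01, 5.99 and 8.31 CPM (3.20 ± 0.31). Car14, another membrane form, and the mitochondrial Car5a fell (−1.75 ± 0.26 and −1.26 ± 0.23), and the other 9 of 13 tested did not pass; 4 fell without CTNNB1_NFE2L2_MET replicate 3.

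Cell division genes rose in the CTNNB1_NFE2L2_MET libraries as a group. All 69 tested genes of mitosis and the spindle rose, 68 of them at least 2-fold, against a background of 16.4% of genes rising, and their median was 2.74. Their summed level was 851 to 1153 CPM against 155 to 218 CPM. Cdk1, the kinase that starts mitosis, read 20.8, 30.1 and 21.9 against 3.30, 2.40 and 4.01 CPM (2.90 ± 0.21). Ube2c, which loads ubiquitin on the cyclins, read 17.7, 23.6 and 15.6 against 1.77, 1.46 and 2.52 CPM (3.29 ± 0.24), and Bub1, a checkpoint kinase, rose by 3.56 ± 0.33. In leave-one-out fits 66 to 68 of the 69 rose.

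DNA replication genes had a smaller median change. Of 52 tested, 37 rose and 1 fell, with a median of 0.91. Gins2, part of the replicative helicase, read 11.1, 16.2 and 11.9 against 2.06, 0.865 and 2.63 CPM (2.79 ± 0.29). The helicase subunit Mcm5 read 25.3, 38.5 and 28.4 against 8.96, 4.46 and 8.94 CPM (2.04 ± 0.29). Pcna, the polymerase clamp, read 57.5, 67.8 and 53.3 against 29.6, 27.5 and 37.3 CPM (0.92 ± 0.12).

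The 1 replication gene that fell was Mcm10, a helicase activator, at 14.5, 35.3 and 47.3 against 125, 62.5 and 95.5 CPM (−1.54 ± 0.39, edgeR adjusted p = 0.0098). It did not pass in the fit of the 6 libraries alone (−1.55, edgeR adjusted p = 0.0576) or with the share of unmapped reads as a covariate (−1.45, edgeR adjusted p = 0.0575), and its level in WT liver was 190 ± 31.6 CPM (SD, n = 3), above that of either group. Uhrf1, which maintains DNA methylation through replication, read 18.1, 24.1 and 16.7 against 3.59, 1.996 and 6.53 CPM (2.27 ± 0.32).

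A short element called CHR (cell cycle genes homology region, TTTGAA) is known from promoters that are active in G2 and mitosis, and it is shown for 3 mitosis genes with capitals on TTTGAA or its reverse complement TTCAAA. The 250 bases before the start are from RefSeq (GRCm38.p6): Cdk1 at chr10:69352913-69353162 on the minus strand, Mki67 at chr7:135716380-135716629 on the minus strand and Ube2c at chr2:164769679-164769928 on the plus strand. Letters of the 2 searches overlap, because CTTTGAA holds both the TCF/LEF core and the CHR.
Cdk1: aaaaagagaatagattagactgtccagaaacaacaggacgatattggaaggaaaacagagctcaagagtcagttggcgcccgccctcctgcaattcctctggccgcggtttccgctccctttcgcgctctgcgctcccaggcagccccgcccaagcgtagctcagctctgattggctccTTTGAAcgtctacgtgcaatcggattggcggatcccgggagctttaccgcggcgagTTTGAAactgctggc
Mki67: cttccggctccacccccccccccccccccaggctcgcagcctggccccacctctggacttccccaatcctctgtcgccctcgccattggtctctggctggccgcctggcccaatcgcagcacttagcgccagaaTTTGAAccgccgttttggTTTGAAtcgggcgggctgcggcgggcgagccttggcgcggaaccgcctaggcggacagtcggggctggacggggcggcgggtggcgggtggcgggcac
Ube2c: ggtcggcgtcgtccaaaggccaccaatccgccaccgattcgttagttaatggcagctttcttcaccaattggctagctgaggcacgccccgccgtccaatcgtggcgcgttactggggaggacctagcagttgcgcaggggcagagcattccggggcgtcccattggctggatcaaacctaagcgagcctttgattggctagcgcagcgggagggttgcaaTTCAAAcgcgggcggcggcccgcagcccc
The matches begin 71 and 15 bases before the start in Cdk1 and 29 in Ube2c, while Mki67 holds a match 98 bases before its start and another upstream of it. In all, 40 of 57 mitosis genes with a window held the element (70.2%), against 7 of 43 replication genes (16.3%). The element was held by 14.7% of tested genes and 20.2% of all genes with a window. Within the 50 bases just before the start it was found in 14 of the 57 mitosis genes (24.6%), 2 of the 43 replication genes (4.65%) and 2.14% of tested genes. CCAAT, or its reverse ATTGG, was found in 73.7% of the mitosis genes, 62.8% of the replication genes and 42.6% of tested genes. The lists were known to rise when the motif was chosen, and no test is given.

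Of 51 tested cyclins, cell cycle inhibitors and p53 targets, 16 rose and 3 fell, and 1 fell without any 1 of CTNNB1_NFE2L2_MET replicates 1 or 2 or NFE2L2_MET replicates 1 or 2; 31 rose after division by total counts and 9 with the share of unmapped reads as a covariate. Cdkn2c (p18), an inhibitor of CDK4 and CDK6, read 19.7, 26.5 and 20.1 against 8.54, 7.19 and 9.11 CPM (1.41 ± 0.16). Phlda3, a p53 target that restrains AKT, rose by 1.69 ± 0.27 and Bax, a pro-apoptotic p53 target, by 0.62 ± 0.11. Ccne1 (cyclin E1), chosen after its values were seen, read 5.32, 8.22 and 7.35 against 6.78, 5.72 and 7.27 CPM and did not pass (0.08 ± 0.22, edgeR adjusted p = 0.819).

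Of 48 DNA repair and telomere genes 20 rose and 3 fell, or 37 and 1 after division by total counts. Neil3, a glycosylase of replicating cells, rose by 3.001 ± 0.43. Mgmt, which removes alkyl groups from guanine outside replication, fell from 14.6, 12.4 and 14.9 to 5.89, 6.06 and 6.28 CPM (−1.20 ± 0.13).

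Genes of amino acid breakdown fell more often than they rose. Of 71 tested enzymes 45 fell and 2 rose, with a median of −0.65, and after division by total counts 27 fell and 10 rose. Hepatocyte markers moved the same way (16 of 21 fell, median −1.14). Enzymes of histidine breakdown fell at several steps: Hal, the first step, read 21.2, 22.5 and 32.9 against 157, 164 and 176 CPM (−2.70 ± 0.32), Uroc1, the second, read 62.3, 78.5 and 101.4 against 445, 429 and 507 CPM (−2.51 ± 0.24), and Ftcd, the last, fell by 1.77 ± 0.18. Arg1, the arginase of the urea cycle, read 417, 381 and 520 against 2285, 2650 and 2391 CPM (−2.48 ± 0.23). Bhmt2, a methyltransferase of methionine metabolism, fell by 1.30 ± 0.14.

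Amino acid synthesis genes rose more often than they fell. Among ATF4 targets and synthesis genes 18 of 43 rose and 2 fell, with 9 rising with the share of unmapped reads as a covariate, 11 without CTNNB1_NFE2L2_MET replicate 1 and 11 without NFE2L2_MET replicate 1. Asns, asparagine synthetase, read 69.1, 29.4 and 32.1 against 8.49, 7.72 and 7.62 CPM (2.45 ± 0.38); replicate 1 was the highest library. Phgdh and Psat1, the first steps of serine synthesis, read 56.6, 44.7 and 33.3 against 8.54, 3.53 and 7.33 CPM and 101.2, 75.3 and 59.0 against 23.3, 12.0 and 20.4 CPM. Gars, glycyl-tRNA synthetase, rose by 1.70 ± 0.11 and Slc7a5, the leucine carrier, by 1.96 ± 0.21. Atf4 mRNA read 120.4, 97.1 and 106.4 against 102, 133 and 113 CPM and overlapped (−0.11 ± 0.17, edgeR adjusted p = 0.673).

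In the list of NADPH and folate one-carbon genes 7 of 24 rose and 6 fell; 14 rose and 3 fell after division by total counts, and 4 rose with the share of unmapped reads as a covariate. Mthfd2, a mitochondrial enzyme of proliferating cells, read 22.02, 16.3 and 14.6 against 3.12, 3.53 and 3.38 CPM (2.40 ± 0.26). Other mitochondrial members did not follow it: Shmt2 fell (−0.56 ± 0.11) and Mthfd1l overlapped (0.07 ± 0.31, edgeR adjusted p = 0.894), both chosen after their values were seen. Of cytosolic enzymes, Mthfd1 fell from 220, 223 and 241 to 123, 140 and 143 CPM (−0.75 ± 0.11), Shmt1 by 0.76 ± 0.13 and Aldh1l1, which ends the pathway by oxidizing the folate-bound carbon, by 1.20 ± 0.17 on the log2 scale.

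Sugar metabolism did not move as 1 block, with 16 of 61 tested genes rising and 17 falling, 27 and 11 after division by total counts and 7 and 15 with the share of unmapped reads as a covariate. The pairs of related genes in this and the next paragraph were picked after their values were seen because they went opposite ways, and pairs that moved together were not counted. Pkm, the pyruvate kinase of most dividing cells, read 525, 305 and 335 against 97.3, 77.8 and 95.9 CPM (2.10 ± 0.27), whereas the liver form Pklr read 132, 160 and 179 against 233, 242 and 229 CPM (−0.58 ± 0.15; −0.21 and no longer passing after division by total counts). The groups overlapped in neither gene.

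The glucose carriers also parted, with Slc2a1 (GLUT1) at 47.9, 30.2 and 28.1 against 15.2, 9.98 and 11.7 CPM (1.52 ± 0.23) and Slc2a2 (GLUT2) at 74.7, 92.6 and 107 against 288, 264 and 240 CPM (−1.53 ± 0.16). Fbp1, the liver fructose bisphosphatase of gluconeogenesis, read 131, 138 and 213 against 612, 814 and 652 CPM (−2.11 ± 0.20); its muscle form Fbp2 rose from near the detection limit, 0.354, 0.0665 and 0.115 CPM, to 1.33, 1.06 and 0.681 CPM (2.45 ± 0.57; 3.38 without NFE2L2_MET replicate 1). Pdk4 and Pdk1, kinases that shut pyruvate dehydrogenase, also parted, by 2.86 ± 0.47 and −1.06 ± 0.14. Gys2, the liver glycogen synthase, chosen after its values were seen, fell by 0.80 ± 0.16.

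**Figure D3:**
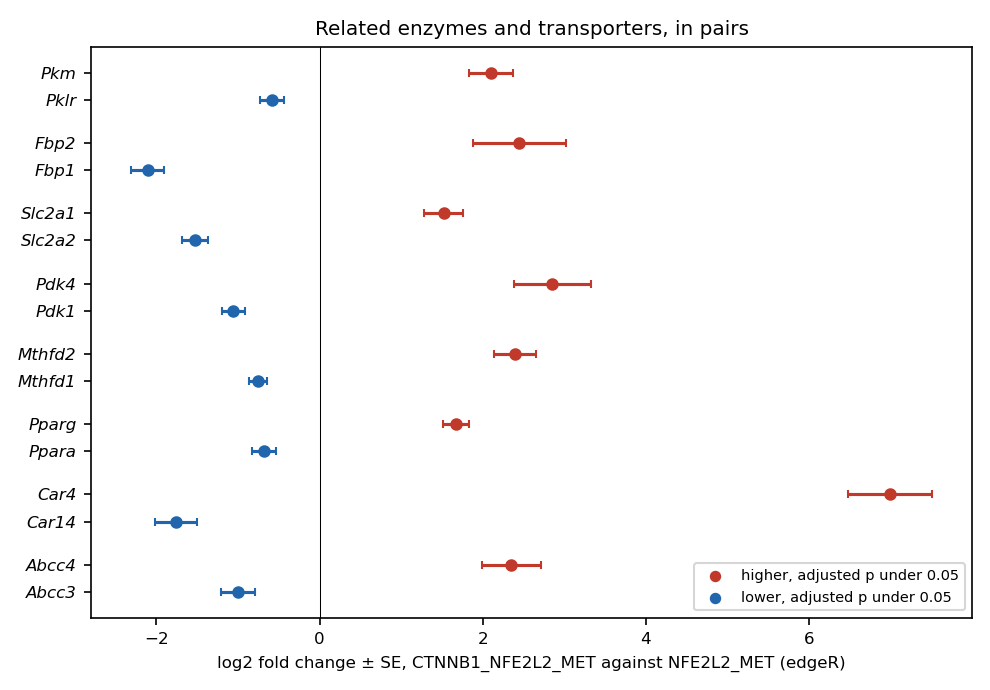
Log2 fold change ± SE (horizontal axis), CTNNB1_NFE2L2_MET against NFE2L2_MET, for 8 pairs of related genes, paired after their values were seen. In each pair the upper gene rose and the lower gene fell, for instance Pkm at 2.10 ± 0.27 and Pklr at −0.58 ± 0.15.

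Lipid genes fell more often than they rose, 31 against 9 of 80 tested (median −0.38), with 22 and 19 after division by total counts, and 24 and 3 with the share of unmapped reads as a covariate; 16 of 21 hepatocyte markers fell beside them. Acly and Acaca, which make the carbon units of fatty acids, read 91.8, 83.1 and 97.9 against 236, 205 and 237 CPM (−1.31 ± 0.14) and 64.1, 69.7 and 76.4 against 135, 145 and 144 CPM (−1.01 ± 0.13). Apoa5, a regulator of plasma triglycerides, read 402, 417 and 707 against 1533, 2537 and 1729 CPM (−1.93 ± 0.28). Cd36, a fatty acid carrier, read 47.1, 37.3 and 43.3 against 103.4, 94.1 and 139 CPM (−1.40 ± 0.23), with WT liver at 5.83 ± 1.40 CPM (SD, n = 3), so both groups were above it. Some uptake and elongation genes rose: Vldlr, a lipoprotein receptor (2.02 ± 0.22), and Elovl7, an elongase, at 74.4, 64.1 and 60.4 against 22.9, 12.5 and 26.0 CPM (1.69 ± 0.21). Me1, the malic enzyme that supplies NADPH, rose by 0.82 ± 0.18. The nuclear receptors that set fat metabolism parted as well, Pparg rising from 5.01, 3.99 and 6.42 to 18.5, 15.7 and 15.1 CPM (1.67 ± 0.16) and Ppara, chosen after its values were seen, falling by 0.68 ± 0.15; the latter was −0.48 and no longer passed with the unmapped share as a covariate, and −0.32 after division by total counts.

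Coagulation and complement factors, most of them secreted by hepatocytes, fell. Of 64 tested, 47 fell and 3 rose against a background of 14.3% falling, with a median of −0.86; leaving out any 1 library gave 46 to 48 falls. C9, the last complement component, read 104, 191 and 324 against 1310, 1426 and 1184 CPM (−2.66 ± 0.47). Hrg, histidine-rich glycoprotein, read 257, 332 and 332 against 885, 1115 and 1036 CPM (−1.72 ± 0.18), Kng1 (kininogen) 989, 893 and 894 against 2188, 2994 and 2636 CPM (−1.49 ± 0.17) and F10 260, 264 and 254 against 543, 715 and 620 CPM (−1.27 ± 0.14). The 3 that rose were F13a1 and Cfp, known from macrophages and other myeloid cells, and Pros1, all named after their values were seen; 1 rose without NFE2L2_MET replicate 1 or 3 or with the share of unmapped reads as a covariate. Hepatocyte markers moved with this list (16 of 21 fell).

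Among hepatocyte transcription factors 18 of 56 fell and 5 rose (11 fell without NFE2L2_MET replicate 2, and after division by total counts 7 fell and 9 rose; with the share of unmapped reads as a covariate 9 fell and 3 rose). Nr1h4 (FXR), the bile acid receptor, read 45.4, 53.2 and 65.1 against 104, 133 and 101.1 CPM (−1.05 ± 0.20), and Creb3l3 fell by 0.75 ± 0.13. Hnf4a read 592, 532 and 557 against 681, 782 and 640 CPM and did not pass, although the groups did not overlap (−0.32 ± 0.15, edgeR adjusted p = 0.107).

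Among growth hormone and IGF genes, the binding protein Igfbp2 read 22.3, 22.1 and 22.6 against 172, 233 and 180 CPM (−3.12 ± 0.36, edgeR adjusted p = 5.0e-05), with WT at 275 ± 65.9 CPM (SD, n = 3). Igf1, the main circulating growth factor made by liver, read 161, 132 and 227 against 331, 429 and 386 CPM (−1.14 ± 0.23), and Igfals, which carries it in blood, fell by 1.47 ± 0.26. Igfbp6 rose, with 20.9, 12.6 and 3.02 against 1.71, 1.86 and 1.26 CPM (2.92 ± 0.53) and a wide spread in the higher group; without CTNNB1_NFE2L2_MET replicate 1 its change was 2.28. In this list of 36 tested genes 11 fell and 6 rose, beside 16 of 21 hepatocyte markers that fell; 3 rose with the share of unmapped reads as a covariate and without CTNNB1_NFE2L2_MET replicate 1 or 2, 2 without NFE2L2_MET replicate 2 and 1 without NFE2L2_MET replicate 3, and after division by total counts 8 rose and 6 fell.

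Hamp, which encodes hepcidin, the hormone that lowers iron export, read 120.7, 165 and 305 against 671, 1568 and 949 CPM (−2.43 ± 0.46), and Tfr2, a sensor upstream of it, read 224, 224 and 249 against 472, 597 and 434 CPM (−1.11 ± 0.15). Fth1, the ferritin heavy chain, read 7451, 4892 and 4318 against 2918, 2423 and 3171 CPM (0.97 ± 0.19). Over 45 tested genes 7 rose and 14 fell, which turned to 17 and 5 after division by total counts.

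Some NRF2 targets rose although the NFE2L2_MET libraries carry the same mutant NRF2. Gpx2, a glutathione peroxidase, read 90.5, 86.1 and 69.7 against 4.48, 5.26 and 7.33 CPM (3.85 ± 0.26), with WT at 0.127 ± 0.171 CPM (SD, n = 3). Gstm2 read 1024, 1128 and 979 against 289, 218 and 340 CPM (1.88 ± 0.16) and Gsta4 830, 803 and 772 against 292, 215 and 370 CPM (1.46 ± 0.21), both from a family with close paralogs. Gsta1 did not pass, at 161, 149 and 152 against 127, 96.9 and 182 CPM (0.19 ± 0.27, edgeR adjusted p = 0.642), though both groups were far above WT (0.810 ± 0.603 CPM, SD, n = 3). Of 46 glutathione genes 14 rose and 2 fell; 25 rose after division by total counts, and 4 fell without CTNNB1_NFE2L2_MET replicate 1 or replicate 3.

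In the thioredoxin, quinone and aldo-keto reductase list 25 of 51 rose and 5 fell; none fell after division by total counts, 2 fell with the share of unmapped reads as a covariate, and 2 or 3 fell without CTNNB1_NFE2L2_MET replicate 1 or 2 or without NFE2L2_MET replicate 1 or 3. The mitochondrial pair rose tightly: Prdx3, a peroxiredoxin, read 278, 278 and 282 against 101.3, 88.0 and 109.6 CPM (1.49 ± 0.12) and Txnrd2, its thioredoxin reductase, 60.1, 63.6 and 67.1 against 27.2, 24.95 and 25.7 CPM (1.29 ± 0.09, edgeR adjusted p = 2.3e-07). Aldh3a1, an aldehyde dehydrogenase, read 48.2, 24.8 and 20.1 against 1.36, 2.33 and 4.47 CPM (3.50 ± 0.41). Akr1b7, an aldose reductase relative, rose by 3.77 ± 0.46.

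Transporters of drugs, conjugates and organic anions moved in both directions. Abcc4 (MRP4) read 976, 832 and 736 against 174, 96.0 and 228 CPM (2.35 ± 0.36), with WT at 3.28 ± 1.69 CPM (SD, n = 3). Abcb1b (MDR1B) read 11.3, 18.7 and 13.7 against 2.12, 1.60 and 2.46 CPM (2.81 ± 0.27), and Abcc5 rose by 1.36 ± 0.18. Abcc3, in contrast, fell from 401, 354 and 430 to 238, 185 and 169 CPM (−1.002 ± 0.21). Slco2a1, the prostaglandin carrier, read 33.9, 28.7 and 22.9 against 114, 100.2 and 145 CPM (−2.07 ± 0.23), and Slc22a7, an organic anion carrier, fell by 2.62 ± 0.47. Of 36 tested, 11 rose and 15 fell, 14 and 8 after division by total counts and 3 and 9 with the share of unmapped reads as a covariate.

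Growth factor genes rose and fell side by side. Fgfr2 read 9.27, 9.23 and 15.5 against 77.8, 49.0 and 59.2 CPM (−2.45 ± 0.34), Egfr 156, 138 and 199 against 374, 758 and 593 CPM (−1.81 ± 0.32) and Fgfr3 13.1, 18.5 and 15.8 against 38.6, 29.6 and 34.3 CPM (−1.11 ± 0.19), so 3 growth factor receptors were lower without overlap. Ligands that rose were Tgfa, which binds EGFR, at 91.1, 62.7 and 49.6 against 26.9, 22.8 and 27.0 CPM (1.41 ± 0.22), and Kitl, the ligand of KIT, at 18.2, 9.04 and 8.95 against 2.18, 0.932 and 1.78 CPM (2.87 ± 0.34). Hgfac, the protease that activates the ligand of MET, read 115, 94.6 and 85.7 against 233, 276 and 281 CPM (−1.42 ± 0.13), while Met itself did not pass.

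Downstream of ERK, Etv5 rose (1.43 ± 0.19), and Fosl1, an AP-1 subunit, rose from 0.118, 0 and 0.0573 to 1.79, 1.35 and 0.584 CPM (4.21 ± 0.78; 5.05 without NFE2L2_MET replicate 1). Among 67 receptor and ERK genes 15 rose and 10 fell, and 6 fell without NFE2L2_MET replicate 1, while after division by total counts 33 rose and 4 fell. In the TGFβ, BMP and Hedgehog list 13 of 46 fell and 5 rose; 3 rose without CTNNB1_NFE2L2_MET replicate 1 or NFE2L2_MET replicate 1 and 2 without NFE2L2_MET replicate 3, and after division by total counts 12 rose and 9 fell, and 2 and 7 with the share of unmapped reads as a covariate. Inhba, the activin A subunit, read 2.61, 3.32 and 2.09 against 10.8, 16.3 and 10.5 CPM (−2.23 ± 0.45), and Tgfb3 rose by 1.98 ± 0.36.

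In the list of adhesion, junction and keratin genes 20 of 71 rose and 7 fell, with a median of 0.08; 34 rose and 3 fell after division by total counts, 10 rose with the share of unmapped reads as a covariate, and 4 fell without CTNNB1_NFE2L2_MET replicate 2. Tff3, a secreted trefoil peptide of mucosal surfaces, had the lowest value of the list, at 2.56, 2.16 and 2.14 against 66.9, 56.0 and 94.9 CPM (−4.99 ± 0.31). At the other end, Cdh17 (liver-intestine cadherin) read 255, 201 and 198 against 2.89, 1.80 and 2.35 CPM (6.53 ± 0.41). Vil1 (villin), an actin bundler of brush borders, read 33.6, 18.1 and 9.54 against 1.24, 0.532 and 1.83 CPM (4.06 ± 0.51), and Pkp1, a desmosomal plaque protein, 8.14, 8.37 and 6.08 against 0.825, 0.932 and 0.802 CPM (3.14 ± 0.25). Cldn2, a tight junction pore, read 120.5, 118.3 and 129 against 67.6, 60.2 and 45.9 CPM (1.08 ± 0.23), and Cd44, a hyaluronan receptor, rose by 1.66 ± 0.30. Epcam overlapped, at 30.5, 26.4 and 24.7 against 39.3, 30.3 and 43.8 CPM (−0.48 ± 0.23, edgeR adjusted p = 0.139; −0.50 and passing in the fit of the 6 libraries alone).

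Of 70 matrix genes 8 rose and 10 fell, or 16 and 8 after division by total counts and 3 and 7 with the share of unmapped reads as a covariate. Lama2, a laminin chain, read 11.1, 13.7 and 11.3 against 2.65, 2.06 and 2.92 CPM (2.23 ± 0.19), and Col18a1, the precursor of endostatin, read 617, 549 and 550 against 875, 1120 and 912 CPM (−0.76 ± 0.14). Col4a3 and Col4a4, neighbours on chromosome 1 that encode the basement membrane chains of kidney, fell together, at 0.205, 0.529 and 0.876 against 2.42, 1.53 and 3.72 CPM (−2.24 ± 0.42) and 0.358, 0.240 and 0.243 against 1.30, 0.799 and 1.43 CPM (−2.05 ± 0.51).

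Antigen presentation and interferon genes rose in 32 of 65 cases and fell in 4; 2 fell without CTNNB1_NFE2L2_MET replicate 1 or NFE2L2_MET replicate 2, and with the share of unmapped reads as a covariate 17 rose. Irgm1, an interferon-induced GTPase, rose by 1.01 ± 0.11. Mx1 read 48.8, 32.9 and 38.1 against 7.37, 3.66 and 10.1 CPM (2.49 ± 0.28). Irf2, an antagonist of interferon-induced transcription, read 32.8, 30.3 and 34.8 against 61.8, 95.2 and 76.0 CPM (−1.25 ± 0.15). In the chemokine and checkpoint list 11 of 42 tested genes rose and 4 fell, with a median of 0.54. Those shares were 26.2% and 9.52%, beside 16.4% and 14.3% of all genes. Ccl9 fell, at 37.1, 32.8 and 36.3 against 135, 141 and 178 CPM (−2.10 ± 0.12), while Ccl24 and the receptor Cx3cr1 rose by 2.27 ± 0.32 and 2.06 ± 0.27.

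Each list of other cell type markers had a lower summed level than the hepatocyte markers, and several lists moved. T and NK cell markers rose in 8 of 14 tested, from a summed 8.32 to 10.2 CPM to 17.1 to 21.2 CPM, and in 3 with the share of unmapped reads as a covariate, with Cd3e at 0.614, 0.385 and 0.389 against 0.413, 0.333 and 0.630 CPM and not passing; Klrb1c was at 2 to 10 counts a library. Macrophage markers rose in 10 of 22 and fell in 1 (summed 803 to 1162 against 755 to 846 CPM), but 4 rose and 3 fell without CTNNB1_NFE2L2_MET replicate 1, and the rises were 6 without NFE2L2_MET replicate 1 and 1 with the unmapped share as a covariate; the Kupffer cell markers Clec4f and Vsig4 overlapped. Dendritic cell markers rose in 5 of 11 (summed 37.6 to 55.9 against 24.2 to 27.1 CPM; 3 without CTNNB1_NFE2L2_MET replicate 1 and 1 with that covariate). B and plasma cell markers rose in 3 of 7 and overlapped in sum (9.01 to 18.3 against 9.85 to 13.2 CPM); 2 rose without any 1 of CTNNB1_NFE2L2_MET replicate 2 or NFE2L2_MET replicates 1, 2 or 3, and 1 without CTNNB1_NFE2L2_MET replicate 3, without the libraries marked ADDED or with that covariate. Neutrophil markers did not rise: of 4 tested 0 rose and 1 fell (median −1.38), and 8 were too low to test. Their sums overlapped (3.89 to 9.73 against 8.02 to 25.7 CPM). The fall was in S100a8, which did not pass in the fit of the 6 libraries alone or without NFE2L2_MET replicate 2. S100a9 did not pass, but passed downward in DESeq2 and with the share of unmapped reads as a covariate. The part of these lists in the antigen presentation and interferon result was not tested.

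Endothelial markers fell in 12 of 23 and rose in none (summed 464 to 491 against 636 to 651 CPM), 6 without CTNNB1_NFE2L2_MET replicate 1, 3 with the share of unmapped reads as a covariate and 2 after division by total counts, under which 2 rose, and Pecam1 did not pass (0.13 ± 0.15, edgeR adjusted p = 0.570; 0.49 and passing after division by total counts). Stellate and fibroblast markers rose in 4 of 19 (21.1%) and fell in 2 (10.5%), close to the 16.4% and 14.3% of all genes, with a median of 0.20. Their summed level was 893 to 1282 against 597 to 691 CPM. That sum includes Ecm1, which hepatocytes also express, at 421, 247 and 210 against 59.2, 57.0 and 57.5 CPM (2.34 ± 0.25). With the share of unmapped reads as a covariate 1 marker rose. Without any 1 of CTNNB1_NFE2L2_MET replicates 1 or 2 or NFE2L2_MET replicates 1 or 2, 1 marker fell. Cholangiocyte markers rose in 2 of 12 and fell in 2, with Krt19 at 0.819, 1.63 and 0.730 against 1.24, 1.26 and 1.15 CPM; leaving out 1 library gave 1 to 3 rises and 1 to 3 falls, with 3 rises without CTNNB1_NFE2L2_MET replicate 3 and 1 without each other library, and no rise with the share of unmapped reads as a covariate. The haemoglobin genes Hba-a1, Hba-a2, Hbb-bt and Hbb-bs were listed at 0 in all 15 libraries, but so was Eno1, an enolase that nearly every cell uses, so these zeros give no level of red cells. Of 11 acinar genes 3 were tested, of which 1 rose and none fell (summed 87.1, 120 and 123 against 74.8, 61.9 and 71.7 CPM). Among those too low to test, Cpa1, Cpb1, Amy2a5 and Pnlip were listed at 0 in the 6 libraries. The limit given for the haemoglobin zeros holds for Cpb1 and Amy2a5, which were at 0 in all 15. Lep was also at 0 in the 6, and Adipoq had 0 to 7 counts. Alb, which defines hepatocytes, read 54976, 48189 and 51333 against 100810, 129500 and 140100 CPM.

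Outside the lists, Maoa (X chromosome, 16619698 to 16687812), which oxidizes serotonin and other amines, read 382, 345 and 420 against 25.2, 17.7 and 17.3 CPM (4.25 ± 0.22, edgeR adjusted p = 1.7e-08), with WT at 12.7 ± 2.33 CPM (SD, n = 3). Bmp8b, a BMP ligand, read 35.1, 19.1 and 20.2 against 1.94, 0.998 and 0.745 CPM, and Tuba8, an α-tubulin, rose by 4.43 ± 0.41. Atp10a, a phospholipid flippase, rose by 4.13 ± 0.32. Lack of overlap between the groups was a condition of the rule that picked these genes, so it is not a separate result.

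Falls of similar rank were Aldh1b1, a mitochondrial aldehyde dehydrogenase (chromosome 4, 45799022 to 45804608), at 33.8, 29.0 and 39.9 against 273, 274 and 380 CPM (−3.17 ± 0.18, edgeR adjusted p = 2.1e-08), and Hsd17b6, a steroid dehydrogenase, at 30.9, 33.7 and 48.0 against 299, 309 and 387 CPM (−3.14 ± 0.34). In both the NFE2L2_MET libraries were above WT, whose means were 106.2 ± 12.3 and 153 ± 72.7 CPM (SD, n = 3). Serpina12 (vaspin) fell by 2.84 ± 0.54, and Nrg4, a ligand of ERBB4, read 3.02, 2.12 and 2.58 against 25.5, 45.4 and 26.2 CPM. The unnamed transcript 5330417C22Rik read 3.07, 1.92 and 1.90 against 35.9, 28.1 and 43.3 CPM (−3.96 ± 0.23) and WT had 0.368 ± 0.0766 CPM (SD, n = 3). Moxd1, a monooxygenase relative, had the largest fall (−6.405 ± 1.57) among genes that fell, did not overlap and had a mean log2 CPM of 3 or more. Its NFE2L2_MET libraries were uneven, at 12.7, 80.8 and 17.1 CPM. Without replicate 2 of that group the change was −5.11, and without CTNNB1_NFE2L2_MET replicate 2 it was −7.03.

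A second comparison in the series also adds mutant CTNNB1 and shares no library with the first: CTNNB1_MET against WT. It adds human MET at the same time and has no mutant NRF2, so the values are set side by side. In it 2429 genes changed (17.2%), 1552 upward (11.0%) and 877 downward (6.22%). Of the 2314 genes that rose in CTNNB1_NFE2L2_MET against NFE2L2_MET, 818 also rose there (35.4% of the first list and 52.7% of the second), and of the 2011 that fell, 327 fell there (16.3% and 37.3%). Opposite directions were seen for 32 and 89 genes. Of the 160 genes that rose at least 8-fold, 109 rose in CTNNB1_MET against WT and none fell. The large falls were not shared in this way: of the 40 genes that fell at least 8-fold, 3 fell there (7.5%) and 6 rose (15%).

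The difference between the 2 changes was tested for each gene and passed for 1330 (9.43%), with the first change the higher for 563 (3.99%) and the lower for 767 (5.44%). Nkd1 rose by 5.25 in the first and by 2.22 in the second (difference 3.02, edgeR adjusted p = 6.5e-05), and Axin2 by 3.48 and 0.90 (difference 2.58, edgeR adjusted p = 0.00033). Apcdd1 (4.71 and 4.57), Lect2 (3.31 and 2.63) and Slc13a3 (3.11 and 2.62) changed by amounts whose difference did not pass (edgeR adjusted p = 0.961, 0.120 and 0.366). In WT liver Nkd1 and Axin2 were above the NFE2L2_MET level, with changes of NFE2L2_MET against WT of −1.12 and −1.11.

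Cyp1a1 and Ahr differed, Cyp1a1 rising by 3.49 against 0.76 ± 0.35 in the second comparison (difference 2.73, edgeR adjusted p = 0.0016) and Ahr by 2.29 against 0.37 ± 0.16 (difference 1.92, edgeR adjusted p = 9.9e-05). Ddc rose in the first comparison and stood at −1.06 ± 0.38 in the second (difference 3.06, edgeR adjusted p = 0.0039), and Ecm1 rose in the first and fell by 1.36 in the second (difference 3.70, edgeR adjusted p = 2.5e-05). Pkm read 78.2 ± 7.07 CPM (SD, n = 3) in CTNNB1_MET and 92.3 ± 33.7 CPM (SD, n = 3) in WT (difference 2.34, edgeR adjusted p = 0.0015). For coagulation and complement, 7 of 64 rose and 7 fell in CTNNB1_MET against WT, and 24 differed between the comparisons, each lower in the first.

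Some genes went opposite ways. Cyp2b9, a P450 gene, rose by 7.17 ± 0.32 in CTNNB1_MET against WT and fell by 1.27 ± 0.21 when mutant CTNNB1 was added to NFE2L2_MET, where it was at 87.0, 86.9 and 97.5 CPM. Col4a3 rose by 4.26 ± 0.40 and fell by 2.24 ± 0.42 in the same 2 comparisons (difference −6.50, edgeR adjusted p = 6.7e-06). BC089597 rose by 2.05 ± 0.15 and fell by 3.01 ± 0.16 (difference −5.06, edgeR adjusted p = 2.9e-09). Cd36 and Acaca, of the lipid list, followed this pattern, with 1.40 ± 0.26 and 0.67 ± 0.13 in CTNNB1_MET against WT beside −1.40 ± 0.23 and −1.01 ± 0.13.

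**Figure D4:**
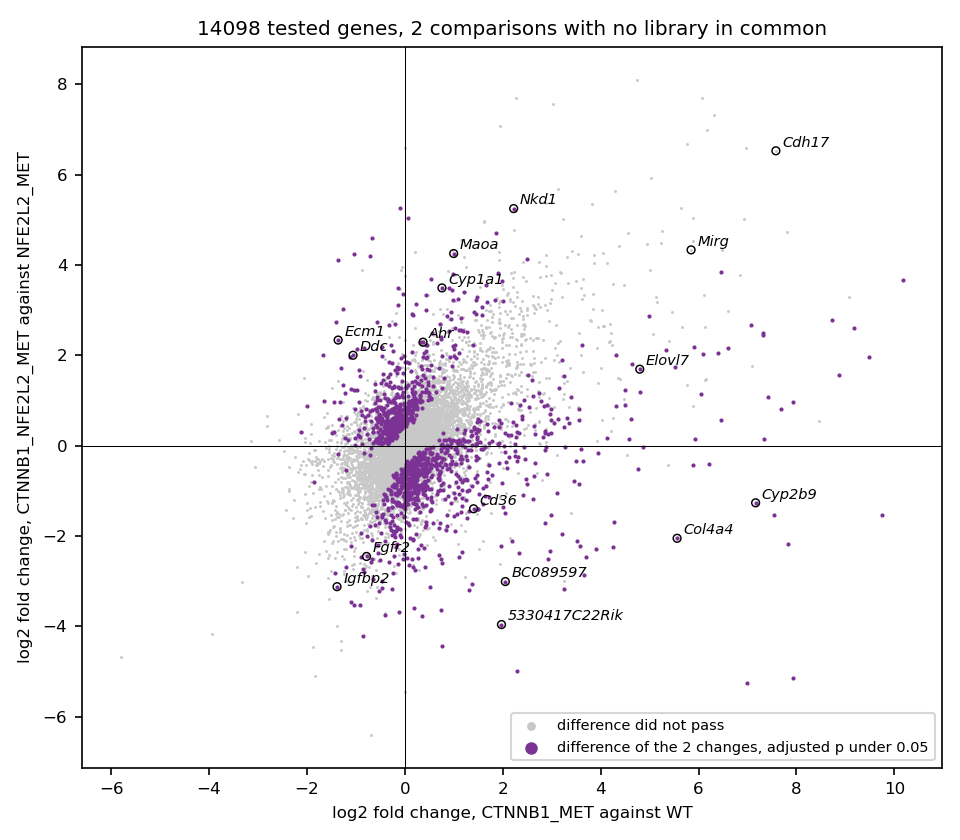
Log2 fold change of each of the 14098 tested genes in CTNNB1_NFE2L2_MET against NFE2L2_MET (vertical axis) and in CTNNB1_MET against WT (horizontal axis), which share no library; purple points are the 1330 genes whose difference passed edgeR's test, and circles mark named genes. Cdh17 and Mirg rose in both, Cyp1a1 and Ahr rose in the first, and Cyp2b9, Col4a4, BC089597 and 5330417C22Rik rose in the second and fell in the first.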

How the data were processed

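RNA was extracted from fresh frozen liver and sequenced as polyA libraries, per the labels' protocols. Trimmomatic, STAR and the mm10 genome are named per the submitters' processing notes, with versions not given in the sources used here. The deposited files hold STAR's raw read counts per gene, made by the authors; the unstranded count was used, and rows for unmapped, multimapping, ambiguous and no-feature reads were left out of library sizes and tests. A transcript with close copies can lose reads as multimapping.

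Counts of all 15 libraries were filtered with edgeR 4.0.16 (filterByExpr), scaled by TMM and fitted with the quasi-likelihood model, so that the 5 groups share 1 estimate of spread; p-values were adjusted by Benjamini-Hochberg at 0.05. R 4.3.3 was used. Named genes were the introduced genes, the key genes of each list with up to 5 others of smallest p, and the 15 largest rises and 15 largest falls. These rises and falls were taken among genes with adjusted p under 0.05, mean log2 CPM of 3 or more and no overlap between the groups. The 10 smallest p of the difference, also at a mean log2 CPM of 3 or more, were added. Others are said to be chosen after their values were seen. Some genes that this rule takes are not reported here. The members and lists were chosen with earlier results of these data known. Promoter windows are from RefSeq (GRCm38.p6). Alternatives were RLE size factors, total-count scaling, no low-count filter, DESeq2 1.42.0, the libraries of the contrast alone, another count column, libraries marked ADDED left out, the share of unmapped reads as a covariate, and each library left out.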

Additional observations from a re-analysis of the deposited data

How the results depend on the processing

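After division by total counts 6928 genes passed, 6133 higher and 795 lower, and 4217 differed between the comparisons, 3772 higher and 445 lower. With the share of unmapped reads as a covariate 2554 passed, 1342 higher and 1212 lower, and in CTNNB1_MET against WT 540 passed, 442 higher and 98 lower. Fitting only the libraries of each contrast gave 1505 for CTNNB1_MET against WT, 1027 higher and 478 lower. Leaving out 1 library gave 3241 to 4122 genes, 1778 to 2246 higher and 1463 to 1876 lower. For CTNNB1_MET against WT it gave 1294 to 2249, 971 to 1459 higher and 323 to 888 lower, the fewest without CTNNB1_MET replicate 1. For the difference it gave 859 to 1415, 324 to 659 higher and 535 to 785 lower; without CTNNB1_MET replicate 2 it was 859, and the higher calls were 324 without that library, 367 without CTNNB1_NFE2L2_MET replicate 2 and 347 without NFE2L2_MET replicate 2. Total-count scaling moved the median of all genes from 0.01 to 0.38, so small falls changed sign with it: Ep300 (to 0.027) and Ndufb5 (to 0.0023) lost their call and lay near 0, and Mrpl12 (0.32) and Slc40a1 (0.31), which had not passed, passed upward. Fanca changed sign in the other count column (−0.24), where it did not pass. Of 432 named genes called, 306 kept their call in every setting that tested them. Not all were tested throughout: 425 were in the fit of the 6 libraries alone and 421 in the other count column. The cause of the other changes was not tested. No paired analysis was possible because replicate numbers follow accession order and link nothing between groups. Genes under the count filter were not tested, and depth limits what can be said of them.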
